A study of Mus musculus with 16 samples.

Results

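The genes described here are 38 members of the interferon response: genes that cells transcribe after interferon binds its receptors, or after they sense foreign nucleic acid. They were taken by gene symbol from a list of transcription factors, sensors, antiviral effectors and related proteins. The list was chosen with earlier results of these data known, so its shares beside those of all genes are a description and not a test. All 38 were among the 19964 genes listed on both days. The organoids were jejunal epithelium of C57BL/6 mice, sequenced as bulk RNA in 4 groups of 4 libraries: DMSO and 4OHT, each at day 2 and day 4. Every group had the genotype Villin-CreERT2; Hnf4aflox/flox. CreERT2, a recombinase that hydroxytamoxifen activates, is under the Villin promoter of the intestinal epithelium, and the loxP sites flank part of Hnf4a, a nuclear receptor gene of that epithelium. The 4OHT groups were exposed for 24 h to hydroxytamoxifen at 0.5 µM before a split, and the control groups to the solvent DMSO. Only the day 4 harvest, counted from the last passage, is described in the labels' protocol. No group had 4OHT without the floxed alleles, so effects of 4OHT or of active recombinase cannot be told apart from those of Hnf4a loss. Whether replicates are separate animals or cultures is not in the labels. The p-values therefore rest on a spread between libraries that could be technical.

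Interferons act through paired receptor chains whose Jak kinases phosphorylate Stat proteins. A complex that contains Stat2 and Irf9 binds the interferon-stimulated response element (ISRE) in target promoters. Gamma interferon acts mainly through another element, the gamma-activated site (GAS). In the gut epithelium, lambda and alpha or beta interferons induce antiviral proteins, and epithelial cells also keep a basal level of some of these genes without added interferon.

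Library totals ranged from 63.8 M to 93.3 M reads assigned to genes. On each day no 4OHT library reached the Hnf4a level of any DMSO library: it stood at 509 ± 22.2 CPM (TMM-scaled share of the library's counts; SD, n = 4) against 1018 ± 30.7 at day 2 and 471 ± 16.1 against 970 ± 6.95 at day 4. Its log2 fold changes were -0.99 ± 0.05 (SE) and -1.04 ± 0.05 (edgeR adjusted p = 8.25e-08 and 1.14e-06). The 8 epithelial markers summed to 13890 to 15730 CPM per library in DMSO and 17640 to 18760 in 4OHT at day 2. At day 4 their sums were lower, at 7987 to 8793 CPM in DMSO and 9969 to 11850 in 4OHT. Immune markers summed to 4.90 to 9.53 CPM, with 7 of 16 listed in both tables. Stromal and endothelial markers summed to 1.69 to 2.93 CPM, with 4 of 9 listed. Replicate 4 of 4OHT day 4 stood apart from its group on the second principal component (43.0 against 18.5 to 30.2). It was also the highest of its group for 24 of the 38 interferon response genes, and its immune marker sum, 9.53 CPM, was the highest of all libraries, the other 15 lying at 6.92 or less. Counts of calls at day 4 are also given without it. So are Irf7, Oasl1, Rtp4, Ifit2 and Rsad2, which are among the 24 in which this library was the highest of its group. No share over all genes was computed for fits with a library left out, so those counts have no background beside them.

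Promoter sequence is shown for some of the members that hold the ISRE core in the window searched and share a call named below. Trim25, Ddx58 and Rsad2 met these terms too and are not shown. RefSeq promoter windows (GRCm38.p6, 250 bases before to 50 after the start) were matched to 28 of the 38 members. Dhx58, Ifi27l2a, Ifi27l2b, Mx2, Oas2, Parp9, Parp14, Rtp4, Usp18 and Zbp1 had no entry. The core GAAANNGAA, searched on both strands, was found for 16 of the 28 genes (57.1%), against 9.76% of all 27025 genes with a window. The GAS letters TTCNNNGAA, which read the same on both strands in their fixed bases, were found for 6 of 28 (21.4%), against 9.55% of all genes. The pieces below are written 5′ to 3′ on the gene's strand, and the capitals mark the core or its reverse complement. Overlapping cores run together. Oas1a (chr5:120907526-120907565, minus strand) and Oas3 (chr5:120777700-120777754, minus strand) rose with 4OHT at day 4. At day 2 their log2 fold changes were 0.40 (called) and -0.30 (not called). Ifit1 (chr19:34640760-34640833, plus strand), Ifit3 (chr19:34583354-34583455, plus strand) and Isg15 (chr4:156200856-156200916, minus strand) rose from day 2 to day 4 under both treatments.
Oas1a: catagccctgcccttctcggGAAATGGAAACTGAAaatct
Oas3: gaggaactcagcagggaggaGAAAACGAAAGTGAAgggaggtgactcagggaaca
Ifit1: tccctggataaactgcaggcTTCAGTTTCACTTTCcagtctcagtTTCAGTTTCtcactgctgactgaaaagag
Ifit3: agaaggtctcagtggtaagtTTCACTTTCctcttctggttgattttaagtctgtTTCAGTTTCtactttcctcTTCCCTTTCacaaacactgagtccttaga
Isg15: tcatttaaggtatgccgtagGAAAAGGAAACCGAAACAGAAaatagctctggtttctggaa

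The core was also present before the start of Bst2, Cxcl10, Gbp2, Gbp3, Gbp7, Ifih1, Rsad2, Stat2 and Trim25, and at or after the start of Ddx58 and Ifi44. It was not in the windows of Irf1, Irf7, Irf9, Ifit2, Oasl1, Oasl2, Psmb8, Psmb9, Tap1, Lgals3bp, Dtx3l or Xaf1, which says only that these letters are not in those windows. Among members with a window that rose with 4OHT at day 4, 4 of 8 held the core, and among those tested without a call it was 10 of 17.

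Levels spanned a wide range. Per kb of exon, 4 members averaged 10 CPM or more over the 16 libraries, 14 lay from 1 to 10, and 20 lay under 1. Lgals3bp, a secreted galectin-binding glycoprotein, and Ifi27l2b, of a family of small hydrophobic proteins of mitochondria, led with 113.5 and 112.995 CPM per kb. Their order depended on the group: Lgals3bp was the higher in DMSO day 2 (124.1 against 113.3), 4OHT day 2 (123.2 against 109.8) and DMSO day 4 (95.3 against 85.8), and Ifi27l2b in 4OHT day 4 (143.015 against 111.4). These 2 genes carried 50.9% of the summed CPM of all 38. Trim25, a ubiquitin ligase that activates the RNA sensor RIG-I, followed at 21.1 CPM per kb, then the transcription factor Irf1 at 14.3. Bst2 (tetherin, which holds budding virus at the membrane), Oasl1, Parp9, Dtx3l and Oas1a lay at 8.76, 7.80, 7.70, 6.98 and 5.31 CPM per kb. The range of the group means of Oasl1 (5.18 to 11.1) spans those of Bst2 (7.40 to 9.75), Parp9 (7.12 to 8.97) and Dtx3l (6.35 to 8.16), so these neighbours have no fixed order. The antiviral effectors ran from Bst2 through Ifit1 (1.10), Mx2 (0.128), Rsad2 (0.124) and Oas3 (0.0436) to Ifi44 (0.0200 CPM per kb). Isg15 averaged 0.643 and Usp18 0.0541 CPM per kb. The guanylate-binding protein genes Gbp2, Gbp3 and Gbp7 lay at 0.0145, 0.0184 and 0.0275 CPM per kb.

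**Figure D1:**
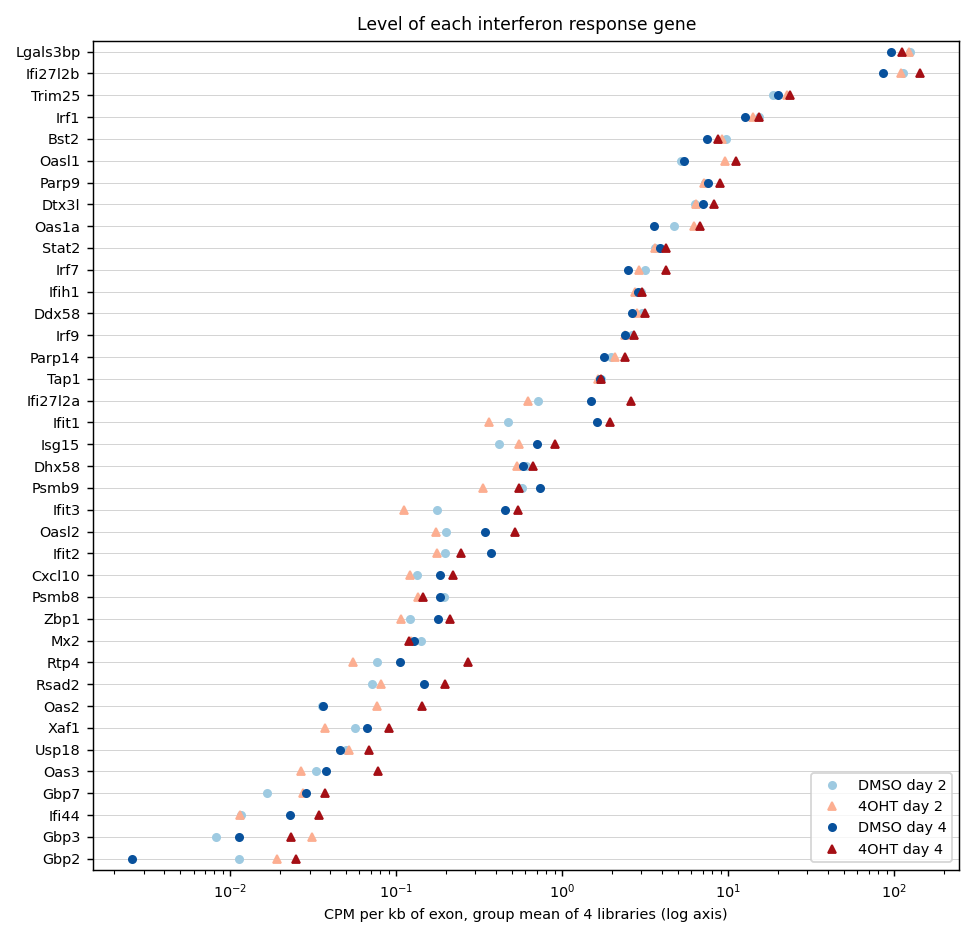
Group means of the 4 libraries of each group for the 38 genes, in CPM per kb of exon on a log axis, ordered by the mean over 16 libraries. Circles are DMSO and triangles 4OHT, pale at day 2 and dark at day 4. The levels run from 0.0145 (Gbp2) to 113.5 (Lgals3bp).

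Day 2 was the earlier of the 2 days sampled, and what it is counted from is not described. Of 34 interferon response genes tested, 4 rose and 2 fell, 11.8% and 5.88%. Of all 15897 genes tested, 16.9% rose and 14.3% fell, so the share called among these genes was not above the background in either direction. The member shares rest on 4 and 2 calls and are not read as a difference from the background. Without DMSO replicate 4 there were 4 rises and 5 falls (Psmb9, Ifit3, Irf9, Ifit1 and Psmb8), so the count of falls depends on that library. The share of all genes was not computed without that library, so the comparison with the background holds for the full fit only. Their median log2 fold change was -0.11, with 11 above 0 and 23 below, against -0.003 over all genes. Gbp2, Gbp3, Gbp7 and Ifi44 had too few reads for the test.

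The day 2 rises were in the oligoadenylate synthetase family and Trim25. Oasl1 (ENSMUSG00000041827, GRCm38 chromosome 5, 114923240 to 114937915, plus strand), whose protein represses translation of Irf7 mRNA, measured 13.0, 13.8, 12.8 and 14.5 CPM in DMSO (replicates 1 to 4, the order used throughout) and 23.1, 23.8, 26.6 and 25.7 CPM in 4OHT. The groups lay far apart, with a log2 fold change of 0.88 ± 0.06 (edgeR adjusted p = 9.71e-07), and the call was lost in a fit over all 16 libraries (log2 0.88, edgeR adjusted p = 0.0619), whose spread includes the variable day 4 libraries. Oasl1 overlaps Gm13822 on the opposite strand, and the strand setting of the counting is not given in the sources used here. Oas1a (ENSMUSG00000052776, chromosome 5, 120896256 to 120907521, minus strand) makes the oligoadenylate that activates RNase L. It measured 10.1, 9.52, 8.24 and 7.85 CPM in DMSO and 11.4, 12.0, 11.2 and 11.9 CPM in 4OHT. Every 4OHT library was above every DMSO library (log2 0.40 ± 0.08, edgeR adjusted p = 0.00245).

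Oas2, a larger synthetase of the same family, stood at 0.219, 0.194, 0.141 and 0.0841 CPM in DMSO, from 7 to 18 reads, and at 0.337, 0.289, 0.364 and 0.379 CPM in 4OHT, from 22 to 34 reads. The groups did not overlap (log2 1.11 ± 0.26, edgeR adjusted p = 0.00671). Oas3 and Oasl2, of the same family, did not pass the test, at log2 -0.30 ± 0.26 and -0.21 ± 0.12. Trim25 (ENSMUSG00000000275, chromosome 11, 88999376 to 89020293, plus strand) measured 93.7, 104, 114 and 114 CPM in DMSO and 133, 123, 136 and 128 CPM in 4OHT. The lowest 4OHT library was above the highest DMSO library, for a log2 fold change of 0.30 ± 0.06 (edgeR adjusted p = 0.00401).

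The day 2 falls were Psmb9 and Ifit3. Psmb9 (ENSMUSG00000096727, chromosome 17, 34181987 to 34187764, minus strand) encodes a catalytic subunit of the immunoproteasome, which cuts peptides for MHC class I. It measured 2.64, 2.21, 1.91 and 1.65 CPM in DMSO and 1.29, 1.30, 1.11 and 1.17 CPM in 4OHT, with no overlap between groups (log2 -0.77 ± 0.15, edgeR adjusted p = 0.00191). Its gene shares 212 bases with Tap1, the peptide transporter gene on the other strand, which was not called (9.34 ± 0.0808 against 8.996 ± 0.565 CPM, SD, n = 4; log2 -0.04 ± 0.06, edgeR adjusted p = 0.628). Psmb8, a partner subunit, had 0.656 ± 0.213 CPM in DMSO and 0.457 ± 0.0949 in 4OHT and did not pass (log2 -0.51 ± 0.24, edgeR adjusted p = 0.133). Ifit3, an RNA-binding antiviral adaptor, measured 0.360, 0.324, 0.282 and 0.264 CPM in DMSO and 0.224, 0.197, 0.221 and 0.134 CPM in 4OHT, from 12 to 30 reads per library. Its fall by 0.67 on the log2 scale (SE 0.22, edgeR adjusted p = 0.0366) was lost with DESeq2 (adjusted p = 0.0955) and when any of 5 libraries was left out (edgeR adjusted p = 0.0509 to 0.113): DMSO replicate 1 or 2, or 4OHT replicate 2, 3 or 4.

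The other day 2 groups were without calls. None of the 4 transcription factors (Irf1, Irf7, Irf9, Stat2) passed, with log2 fold changes of -0.14 to 0.01. The 4 sensors of viral nucleic acid did not pass either: Ddx58 (RIG-I), Ifih1 (MDA5), Dhx58 (a regulator of these 2) and Zbp1 lay from log2 -0.16 to -0.10.

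**Figure D2:**
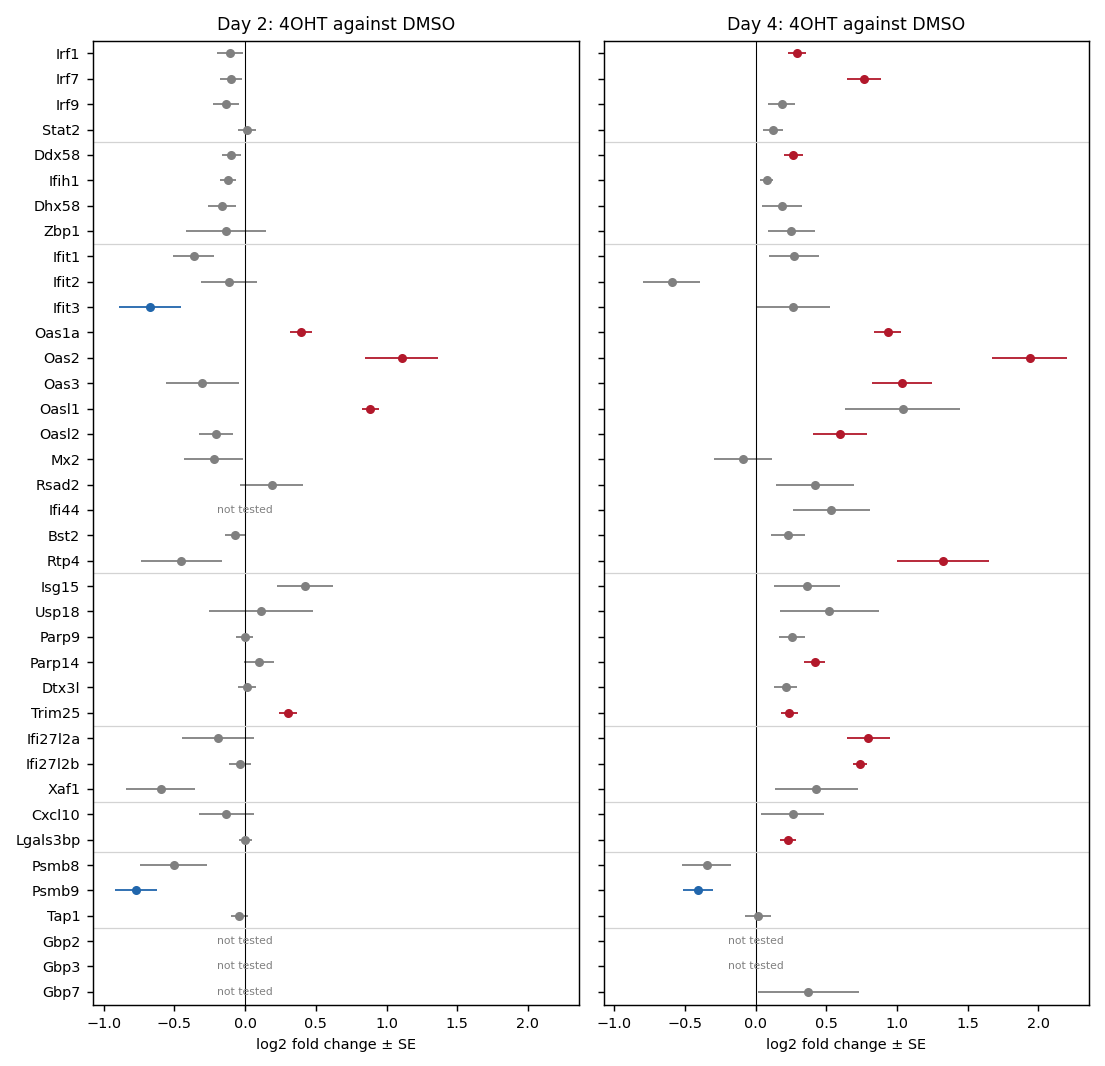
Log2 fold change of 4OHT against DMSO with its SE for each gene at day 2 (left) and day 4 (right), grouped by role with grey lines between roles. Red points were called higher and blue points lower (edgeR adjusted p below 0.05), and grey points were not called. At day 2, 11 of 34 points lie above 0, and at day 4, 32 of 36.

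The same comparison of 4OHT with DMSO was made at day 4. Of 36 interferon response genes tested, 13 rose and 1 fell, 36.1% and 2.78%, against 13.7% and 11.1% of all 16040 genes. Their median log2 fold change was 0.27, with 32 above 0 and 4 below, beside -0.007 over all genes. Since the members were chosen with earlier results of these data known, this contrast with all genes is a description. Without 4OHT replicate 4 the rises were 12 and the falls 2. Among all 38 members, 3 rose on both days (Oas1a, Oas2, Trim25), 1 fell on both (Psmb9), and 10 rose at day 4 with no call at day 2. Same-numbered libraries of DMSO and 4OHT deviated together at day 4, and in a paired fit with the replicate block 17 rose and 2 fell, 47.2% and 5.56%, against 22.8% and 22.2% of all genes.

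Of the 4 transcription factors, 2 rose at day 4. Irf7 (ENSMUSG00000025498, chromosome 7, 141262706 to 141266481, minus strand), the factor that drives interferon alpha genes and amplifies the response, measured 9.86, 9.03, 9.47 and 9.04 CPM in DMSO and 14.1, 13.5, 15.9 and 20.1 CPM in 4OHT. All 4OHT libraries lay above all DMSO libraries, replicate 4 highest (log2 0.77 ± 0.12, edgeR adjusted p = 0.00128). Without replicate 4 Irf7 was at log2 0.64 (edgeR adjusted p = 0.000255). Irf7 overlaps Phrf1 on the opposite strand. Irf1, which acts on both ISRE promoters and antigen processing genes, measured 53.1, 48.3, 51.1 and 47.1 CPM in DMSO and 65.4, 61.0, 62.6 and 55.1 CPM in 4OHT, again without overlap (log2 0.29 ± 0.06, edgeR adjusted p = 0.00717). Irf1 has an opposite-strand neighbour too, Gm17334.

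Irf9 and Stat2, subunits of the ISRE-binding complex, did not pass in the unpaired fit, at log2 0.18 ± 0.10 and 0.12 ± 0.07 (edgeR adjusted p = 0.196 and 0.258). With the replicate block they passed, at log2 0.19 and 0.12 (edgeR adjusted p = 0.0212 and 0.0335). Irf9 measured 13.3, 14.6, 12.6 and 10.97 CPM in DMSO and 15.9, 15.3, 13.4 and 13.8 CPM in 4OHT, so each 4OHT library was above the DMSO library of its own number although the groups overlapped.

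Of the sensors, Ddx58 passed at day 4. It measured 19.2, 18.5, 17.5 and 18.7 CPM in DMSO and 24.3, 23.5, 20.8 and 20.2 CPM in 4OHT, with no overlap (log2 0.27 ± 0.07, edgeR adjusted p = 0.0169). Without DMSO replicate 3 the call was lost (log2 0.24, edgeR adjusted p = 0.0605). Ifih1, Dhx58 and Zbp1 lay at log2 0.08 to 0.25 and did not pass.

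Of 13 antiviral effectors, 5 rose at day 4, and 4 of these are oligoadenylate synthetase family members. Oas1a measured 7.49, 7.03, 5.67 and 6.53 CPM in DMSO and 12.7, 11.9, 12.5 and 14.0 CPM in 4OHT. The groups were well separated (log2 0.93 ± 0.10, edgeR adjusted p = 0.000147). Oas2 (ENSMUSG00000032690, chromosome 5, 120730333 to 120749853, minus strand) had the largest log2 fold change of the 36, 1.94 ± 0.27 (edgeR adjusted p = 0.000688), from 0.205, 0.191, 0.107 and 0.138 CPM to 0.780, 0.531, 0.462 and 0.760 CPM. These values rest on 7 to 19 reads per DMSO library and 34 to 63 per 4OHT library.

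Oas3 stood at 0.249, 0.296, 0.259 and 0.260 CPM in DMSO and 0.545, 0.469, 0.435 and 0.736 CPM in 4OHT, without overlap (log2 1.03 ± 0.21, edgeR adjusted p = 0.00584). Oasl2 measured 2.14, 2.61, 2.15 and 1.82 CPM in DMSO and 3.95, 2.60, 2.55 and 4.12 CPM in 4OHT. Here 4OHT replicates 2 and 3 lay just below DMSO replicate 2. The rise in Oasl2 (log2 0.60 ± 0.19, edgeR adjusted p = 0.0437) was lost with the replicate block (edgeR adjusted p = 0.0506) and without DMSO replicate 1, 3 or 4 or 4OHT replicate 1 or 4 (edgeR adjusted p = 0.0871 to 0.109).

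Oasl1 did not pass at day 4. It measured 12.4, 8.90, 19.4 and 16.1 CPM in DMSO and 21.3, 13.6, 26.2 and 54.7 CPM in 4OHT. The groups overlapped and 4OHT replicate 4 was far above the rest (log2 1.04 ± 0.41, edgeR adjusted p = 0.0944). Each 4OHT library was above the DMSO library of its number, and with the replicate block the log2 fold change was 0.92 ± 0.29 (edgeR adjusted p = 0.0801). Without 4OHT replicate 2 it passed (log2 1.28, edgeR adjusted p = 0.0368), and without 4OHT replicate 4 Oasl1 was at log2 0.53 (edgeR adjusted p = 0.243).

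Rtp4, an interferon-induced receptor transporter with antiviral activity, was the other effector that rose. It went from 0.195, 0.296, 0.229 and 0.184 CPM in DMSO to 0.347, 0.457, 0.571 and 0.920 CPM in 4OHT, with 12 to 28 and 28 to 75 reads per library. The lowest 4OHT library was above the highest DMSO library (log2 1.33 ± 0.32, edgeR adjusted p = 0.0135). Without 4OHT replicate 4, the highest, Rtp4 passed at log2 0.998 (edgeR adjusted p = 0.0192).

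The Ifit genes, neighbours on chromosome 19 whose proteins bind viral RNA, were not called higher with 4OHT at day 4. Ifit1 had 4.28 ± 0.657 CPM in DMSO and 5.16 ± 1.24 in 4OHT (SD, n = 4; log2 0.27 ± 0.18, edgeR adjusted p = 0.298), and Ifit3 had 0.783 ± 0.156 and 0.948 ± 0.346 (log2 0.26 ± 0.26, edgeR adjusted p = 0.506). Ifit2 lay on the other side of 0. It measured 1.503, 1.19, 1.54 and 1.62 CPM in DMSO and 1.03, 0.654, 0.870 and 1.30 CPM in 4OHT, with 4OHT replicate 4 above DMSO replicate 2. It did not pass in the unpaired fit (log2 -0.59 ± 0.20, edgeR adjusted p = 0.0571). With the replicate block it passed as lower (log2 -0.62 ± 0.14, edgeR adjusted p = 0.00392), and so it did without 4OHT replicate 4 (log2 -0.77, edgeR adjusted p = 0.0135).

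Bst2, Rsad2 (viperin, which makes a chain-terminating nucleotide), Mx2 (a dynamin-like GTPase) and Ifi44 were not called in the unpaired fit at day 4. Bst2 measured 6.66, 5.75, 6.91 and 7.42 CPM in DMSO and 7.14, 6.61, 8.10 and 9.41 CPM in 4OHT, overlapping between groups but higher in 4OHT at each number. It passed with the replicate block (log2 0.22 ± 0.07, edgeR adjusted p = 0.0175; unpaired 0.194). Rsad2 had 0.573, 0.762, 0.671 and 0.551 CPM in DMSO and 0.693, 0.691, 0.612 and 1.42 CPM in 4OHT, so that replicate 4 alone lay above the DMSO range. Its log2 fold change was 0.42 ± 0.28 (edgeR adjusted p = 0.309), and 0.06 without 4OHT replicate 4 (edgeR adjusted p = 0.849).

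In the ISG15, ubiquitin and ADP-ribose group, 2 of 6 rose at day 4. Trim25 measured 117, 116, 112 and 112 CPM in DMSO and 140, 126, 126 and 147 CPM in 4OHT, with no overlap (log2 0.24 ± 0.06, edgeR adjusted p = 0.0146). Parp14, a mono-ADP-ribosyltransferase, went from 15.6, 17.6, 17.4 and 16.3 CPM to 24.3, 23.3, 22.2 and 19.4 CPM, all above the controls (log2 0.42 ± 0.08, edgeR adjusted p = 0.00314).

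Parp9 and Dtx3l form a ubiquitin ligase complex and are head-to-head genes on chromosome 16 whose bodies share 682 bases. Parp9 measured 35.7, 31.4, 39.9 and 39.8 CPM in DMSO and 42.3, 37.8, 47.2 and 47.5 CPM in 4OHT. Dtx3l measured 38.9, 34.9, 44.6 and 43.2 CPM in DMSO and 47.1, 42.1, 50.8 and 46.9 CPM in 4OHT. In both genes replicate 2 was the lowest library of each treatment and each 4OHT library was above its same-numbered control. Unpaired, neither passed (edgeR adjusted p = 0.0659 and 0.0806), and with the replicate block both did, at log2 0.25 ± 0.03 and 0.21 ± 0.03 (edgeR adjusted p = 8.80e-05 and 0.000475).

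Isg15, the ubiquitin-like modifier, and Usp18, the protease that removes it and restrains the receptor, were not called at day 4 (log2 0.36 ± 0.23 and 0.52 ± 0.35). Usp18 rested on 6 to 20 reads per library.

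Ifi27l2b (ENSMUSG00000021208, chromosome 12, 103450898 to 103457223, minus strand) had the smallest adjusted p of the 36 at day 4. It measured 95.7, 92.3, 94.0 and 93.4 CPM in DMSO and 149, 156, 169 and 152 CPM in 4OHT, each group narrow and far from the other (log2 0.74 ± 0.05, edgeR adjusted p = 1.11e-05). Its neighbour Ifi27l2a, a paralog that may share reads with it, rose from 0.789, 0.699, 0.641 and 0.643 CPM to 1.04, 1.31, 1.09 and 1.40 CPM (log2 0.80 ± 0.15, edgeR adjusted p = 0.00405). Xaf1, which opposes an inhibitor of apoptosis, was not called (log2 0.43 ± 0.29).

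Lgals3bp rose from 276, 273, 264 and 272 CPM to 320, 294, 306 and 349 CPM (log2 0.23 ± 0.06, edgeR adjusted p = 0.0164), a small change at a high level with no overlap. Cxcl10, a chemokine that draws T cells, had 0.412 ± 0.0690 CPM in DMSO and 0.497 ± 0.128 in 4OHT and was not called (edgeR adjusted p = 0.437).

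Among antigen processing genes, Psmb9 fell at day 4. It measured 2.51, 2.83, 2.73 and 2.62 CPM in DMSO and 1.96, 2.05, 2.19 and 1.85 CPM in 4OHT, with every 4OHT library below every control (log2 -0.41 ± 0.10, edgeR adjusted p = 0.0164). Psmb8 was at log2 -0.35 ± 0.17 and Tap1 at 0.02 ± 0.09, without calls. The guanylate-binding proteins, GTPases that attack vacuoles of intracellular pathogens, were close to the limit of counting. Gbp2 had 0, 1, 0 and 1 reads in DMSO and 6, 3, 3 and 8 in 4OHT, Gbp3 had 2 to 4 and 4 to 9, and neither was tested. Gbp7 had 7 to 21 reads in DMSO and 8 to 25 in 4OHT and was not called (edgeR adjusted p = 0.494).

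**Figure D3:**
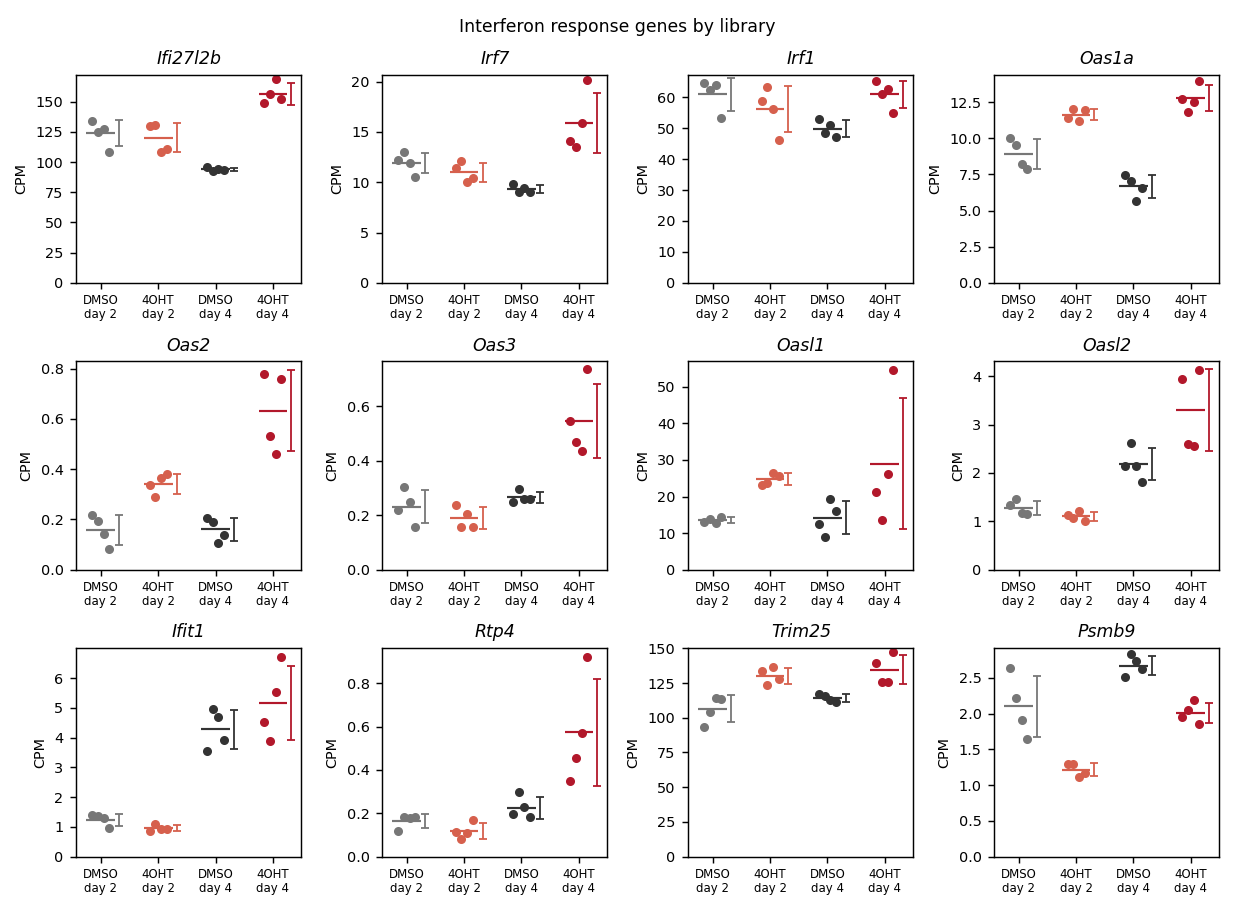
CPM of 12 interferon response genes in each of the 16 libraries, replicates 1 to 4 from left to right within a group, with the group mean (line) and SD (bar, n = 4), and each axis starting at 0. Ifi27l2b and Irf7 are lowest in DMSO day 4 and highest in 4OHT day 4, Oasl1 has 1 library at 54.7 CPM, and Psmb9 is lower in 4OHT on both days.

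The comparison of day 4 with day 2 asked how these genes moved over time under each treatment. In DMSO, 8 of 34 rose and 7 fell, 23.5% and 20.6%, against 28.7% and 24.8% of all 16088 genes, with a median log2 change of 0.07 (0.03 over all genes). In 4OHT, 19 of 36 rose and 1 fell, 52.8% and 2.78%, against 25.9% and 23.5% of all 15962 genes, with a median of 0.37 (0.01 over all genes). The 19 include Ifi44 and Rtp4, which passed the filter on low counts only through the day 4 group where they were high. These shares are a description, as the members were chosen with earlier results of these data known. The 4OHT time comparison and the day 4 treatment comparison share the 4OHT day 4 libraries, so their values are not independent. Without replicate 4 of 4OHT day 4, 22 members rose and 1 fell with time in 4OHT.

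Ifit1 and Ifit3 had the largest changes with time among the members tested in control organoids. In DMSO, Ifit1 went from 1.39, 1.35, 1.28 and 0.950 CPM at day 2 to 3.56, 4.95, 4.70 and 3.90 CPM at day 4, far outside the day 2 range (log2 1.79 ± 0.15, edgeR adjusted p = 6.87e-07). In 4OHT it went from 0.870, 1.10, 0.933 and 0.926 to 4.53, 3.87, 5.54 and 6.71 CPM (log2 2.42 ± 0.18, edgeR adjusted p = 3.53e-06). Ifit3 rose by log2 1.37 ± 0.20 in DMSO and 2.30 ± 0.30 in 4OHT, and Ifit2 by 0.92 ± 0.15 in DMSO. The day 4 values of Ifit3 were 0.940, 0.879, 0.717 and 0.597 CPM in DMSO and 0.990, 0.605, 0.788 and 1.41 in 4OHT, all above every day 2 library. Ifit2 at day 2 had 0.771, 0.680, 0.730 and 0.901 CPM in DMSO and 0.631, 0.565, 0.569 and 1.01 in 4OHT. In 4OHT, Ifit2 did not pass (log2 0.45 ± 0.25, edgeR adjusted p = 0.159), and it passed without replicate 4 of day 2.

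Rsad2, Isg15, Oasl2 and Ifi27l2a also rose with time under both treatments. In DMSO their log2 changes were 1.05 ± 0.18, 0.76 ± 0.22, 0.78 ± 0.14 and 1.08 ± 0.21, and in 4OHT they were 1.28 ± 0.31, 0.70 ± 0.22, 1.58 ± 0.18 and 2.06 ± 0.19. Without replicate 4 of 4OHT day 4 the change of Rsad2 in 4OHT was log2 0.92 (edgeR adjusted p = 0.00475). At day 2, Rsad2 had 0.334, 0.313, 0.341 and 0.252 CPM in DMSO and 0.238, 0.302, 0.395 and 0.457 in 4OHT, below every library of day 4. Oasl2 had 1.34, 1.46, 1.18 and 1.14 CPM in DMSO and 1.14, 1.06, 1.22 and 1.004 in 4OHT, again below all of day 4. The same held for Ifi27l2a, with 0.450, 0.378, 0.271 and 0.228 CPM in DMSO and 0.393, 0.250, 0.269 and 0.245 in 4OHT. Isg15 measured 0.244, 0.313, 0.306 and 0.397 CPM in DMSO at day 2 and 0.454, 0.656, 0.397 and 0.612 at day 4. Day 4 replicate 3 was level with the highest day 2 library. In 4OHT, Isg15 had 0.351, 0.433, 0.379 and 0.502 CPM, then 0.520, 0.543, 0.843 and 0.834, without overlap. Its rise in 4OHT was lost without day 2 replicate 1 or 3 or day 4 replicate 3 (edgeR adjusted p = 0.0562 to 0.0627). Psmb9 rose by log2 0.72 ± 0.12 in 4OHT and 0.35 ± 0.14 in DMSO (edgeR adjusted p = 0.0459), the latter lost when any of 7 of the 8 libraries was left out, all but day 2 replicate 1.

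Another set of members fell with time in DMSO: Irf1, Irf7, Ddx58, Oas1a, Bst2, Ifi27l2b and Lgals3bp, with log2 changes of -0.41 to -0.20. At day 2 Irf1 had 64.8, 62.3, 63.9 and 53.2 CPM in DMSO and 58.9, 63.4, 56.4 and 46.05 in 4OHT. Ddx58 had 19.4, 21.006, 23.5 and 21.2 CPM in DMSO and 20.5, 19.7, 20.8 and 18.0 in 4OHT. For both genes the day 2 groups overlapped and the DMSO values lay above those of DMSO at day 4. Bst2 had 8.67, 9.70, 8.31 and 8.55 CPM in DMSO and 7.63, 8.43, 8.74 and 8.51 in 4OHT, and Lgals3bp 374, 363, 343 and 332 in DMSO and 349, 364, 348 and 342 in 4OHT. Parp14, which had 16.7, 18.0, 21.2 and 17.3 CPM in DMSO and 22.3, 20.3, 19.5 and 15.7 in 4OHT at day 2, was called in neither time comparison. Of the genes that fell, Lgals3bp also fell in 4OHT (log2 -0.15 ± 0.06, edgeR adjusted p = 0.0460), a call lost when any library but day 4 replicate 4 was left out. Ddx58 in DMSO lost its call without day 4 replicate 3 (edgeR adjusted p = 0.0627). In 4OHT, Ifi27l2b and Irf7 rose with time instead, by log2 0.38 ± 0.07 and 0.53 ± 0.12 (edgeR adjusted p = 0.00131 and 0.00386).

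The remaining rises with time in 4OHT were Stat2, Zbp1, Oas2, Oas3, Rtp4, Ifi44, Dtx3l, Parp9, Xaf1 and Cxcl10, with log2 changes from 0.22 (Stat2) to 2.25 (Rtp4). In DMSO, 9 of these 10 were tested and not called, and Ifi44 was not tested. In 4OHT, Ifi44 had 4 to 7 reads per library at day 2 and 12 to 20 at day 4. Rtp4 had 6 to 15 and 28 to 75. Both passed the filter on low counts through the day 4 libraries, where they were high, so the filter favoured a rise. Whether the time course differed between the treatments is the interaction given further on, and none of the 10 passed it in the fit without a block. With a replicate block Oas3, Rtp4 and Parp9 passed it.

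Their values by library were as follows. Rtp4 in 4OHT went from 0.112, 0.0788, 0.111 and 0.167 CPM at day 2 to the 0.347 to 0.920 CPM of day 4, while its DMSO libraries had 0.116, 0.184, 0.177 and 0.180 CPM at day 2. Oas3 went in 4OHT from 0.238, 0.158, 0.206 and 0.156 CPM to at least 0.435 CPM, against 0.219, 0.302, 0.247 and 0.156 CPM in DMSO at day 2. For both genes the day 2 groups overlapped and the 4OHT day 4 group stood above all other libraries.

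Zbp1, which senses Z-form nucleic acid and can trigger necroptosis, had 0.393, 0.236, 0.348 and 0.535 CPM in 4OHT at day 2, then 0.916, 0.654, 0.747 and 0.662. In DMSO it had 0.656, 0.389, 0.306 and 0.361 CPM, then 0.713, 0.551, 0.656 and 0.581. The rise cleared the overlap in 4OHT alone (log2 0.96 ± 0.24, edgeR adjusted p = 0.0064; in DMSO 0.56 ± 0.23, 0.0503). Xaf1 in 4OHT went from 0.182, 0.158, 0.221 and 0.134 CPM to 0.483, 0.309, 0.313 and 0.601, and in DMSO from 0.347, 0.216, 0.247 and 0.240 to 0.313, 0.402, 0.183 and 0.352.

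Cxcl10 in 4OHT had 0.210, 0.250, 0.300 and 0.323 CPM at day 2 and 0.545, 0.358, 0.435 and 0.650 at day 4 (log2 0.86 ± 0.24, edgeR adjusted p = 0.0109). In DMSO it had 0.283, 0.313, 0.271 and 0.337 CPM, then 0.411, 0.487, 0.320 and 0.428, overlapping. Ifi44, a cytoplasmic protein of uncertain biochemistry, rested on 4 to 10 reads per library at day 2. In 4OHT it had 0.0701, 0.0525, 0.0791 and 0.0781 CPM at day 2 and 0.198, 0.148, 0.245 and 0.245 at day 4, and in DMSO 0.0643, 0.0540, 0.118 and 0.0481, then 0.141, 0.191, 0.107 and 0.122.

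Stat2, Parp9 and Dtx3l moved less. Stat2 in 4OHT had 22.4, 22.4, 21.8 and 19.5 CPM at day 2 and 23.1, 24.3, 25.8 and 27.0 at day 4, and in DMSO 19.8, 22.1, 23.1 and 20.9, then 20.2, 23.6, 24.0 and 24.4. Its rise in 4OHT lost its call without day 2 replicate 4 or day 4 replicate 3 (edgeR adjusted p = 0.0507 and 0.0527). At day 2, Parp9 had 35.4, 34.6, 38.2 and 31.9 CPM in DMSO and 34.6, 36.5, 34.9 and 32.8 in 4OHT, and Dtx3l had 35.7, 33.9, 40.9 and 34.8 in DMSO and 37.98, 37.4, 34.8 and 35.4 in 4OHT. In 4OHT both rose with no overlap between the days, by log2 0.33 ± 0.07 and 0.36 ± 0.06.

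The day by treatment interaction tested whether the 4OHT effect itself differed between the days. Of 36 members, edgeR called 3 with a more positive effect at day 4 (8.33%) and 0 with a more negative one (also 0 at an unadjusted p below 0.05 and 0 with DESeq2), against 1.2% and 0.476% of all 16597 genes. The median interaction was 0.36 on the log2 scale, with 32 above 0 and 4 below, beside 0.006 over all genes. Ifi27l2b had an interaction of 0.78 ± 0.10 (edgeR adjusted p = 0.000545). Its 4OHT libraries measured 130, 131, 108 and 111 CPM at day 2 against 134, 125, 128 and 109 in DMSO, so the groups overlapped at day 2 and were apart at day 4. For Irf7 the interaction was 0.88 ± 0.15 (edgeR adjusted p = 0.00984), with day 2 values of 12.2, 13.0, 11.9 and 10.5 CPM in DMSO and 11.4, 12.1, 10.02 and 10.4 CPM in 4OHT. Oas1a had 0.54 ± 0.13 (edgeR adjusted p = 0.0428), which was lost when any of 11 libraries was left out (edgeR adjusted p = 0.0555 to 0.103). Without replicate 4 of 4OHT day 4, 5 members passed. Oas3, Rtp4 and Ddx58 missed the threshold at 1.34 ± 0.34, 1.78 ± 0.47 and 0.37 ± 0.10 (edgeR adjusted p = 0.0514, 0.0590 and 0.0565). With a replicate block 11 members passed, all with a more positive effect at day 4, although same-numbered libraries deviated together at day 4 only. These were Irf1, Irf7, Irf9, Ddx58, Oas1a, Oas3, Rtp4, Parp9, Ifi27l2a, Ifi27l2b and Lgals3bp. There, Oas3, Rtp4, Ddx58 and Parp9 had edgeR adjusted p = 0.0237, 0.0255, 0.00802 and 0.0108. The share of all genes that passed the interaction with this block was not computed, so the count of 11 has no background beside it.

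**Figure D4:**
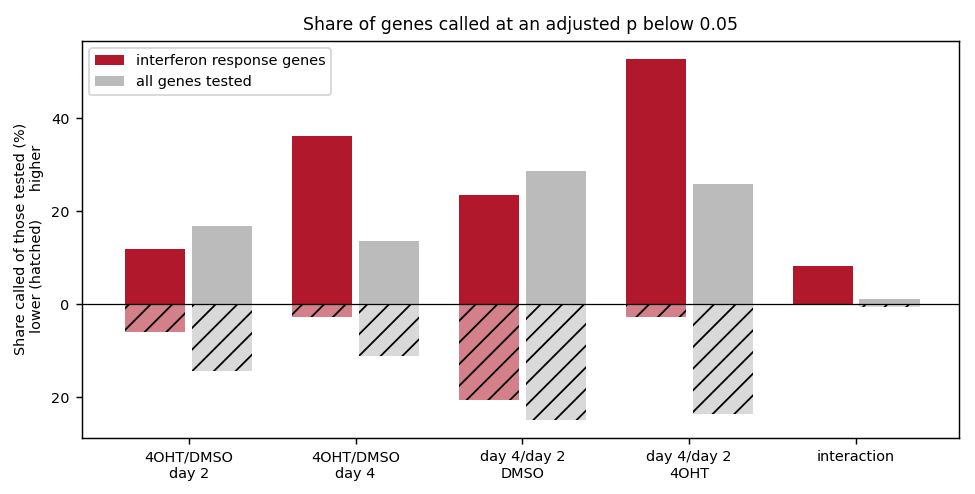
Share of the tested interferon response genes (red) and of all genes tested (grey) called higher (up) or lower (down, hatched) at an edgeR adjusted p below 0.05, in percent, for the 5 comparisons. The genes stand at 36.1% higher against 13.7% at day 4 and at 52.8% against 25.9% with time in 4OHT. At day 2, where few were called, they are not above the background. The genes were chosen with earlier results of these data known, so the bars are a description.

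The other genes of the pathway came from lists of receptors, signalling proteins, regulators and further targets. Their counts are to be read against the 16.9% of all genes that rose and 14.3% that fell with 4OHT at day 2, and 13.7% and 11.1% at day 4. None of the 11 interferon ligand genes listed was analysed here. The alpha and beta interferon receptor chains Ifnar1 and Ifnar2 did not pass with 4OHT on either day, at log2 -0.02 to 0.14. Ifnlr1, the specific chain of the lambda interferon receptor, rose from 20.6 ± 1.93 to 26.7 ± 1.19 CPM (SD, n = 4) at day 2, and at day 4 from 14.4 ± 0.713 to 19.9 ± 2.03 CPM (log2 0.38 ± 0.07 and 0.46 ± 0.08, edgeR adjusted p = 0.00121 and 0.00182). Its partner Il10rb was not called on either day.

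Ifngr1, the ligand-binding chain for gamma interferon, rose by log2 0.27 ± 0.04 at day 2 and 0.35 ± 0.07 at day 4, while Ifngr2 fell by 0.17 on the log2 scale at day 2 and was not called at day 4 (log2 0.11). The kinase Tyk2 rose by log2 0.18 and 0.28. Irf8, a factor best known from myeloid cells, fell by 0.64 on the log2 scale at day 2 and 0.41 at day 4, with group means of 52.7 to 93.1 CPM. In all, 4 of 15 receptor and Jak-Stat genes rose and 4 fell at day 2 (26.7% each way, median log2 -0.04), and 4 rose and 1 fell at day 4 (26.7% and 6.67%, median 0.11).

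Among 12 negative regulators, 1 rose and 3 fell at day 2 (8.33% and 25%), and 2 rose and 1 fell at day 4 (16.7% and 8.33%, against 13.7% and 11.1% of all genes). Socs1, an inhibitor of Jak kinases that interferon itself induces, rose by log2 0.73 ± 0.12 at day 2 and 0.58 ± 0.14 at day 4, and Socs3 by 0.34 ± 0.10 at day 4. Of 15 sensing adaptors and kinases tested, 2 rose and 3 fell at day 2 (against 16.9% and 14.3% of all genes), and 6 rose and 1 fell at day 4 (against 13.7% and 11.1%). The kinase gene Ikbke rose by log2 0.43 ± 0.05 at day 4 and differed between days (interaction 0.41 ± 0.08, edgeR adjusted p = 0.0121). Mb21d1, the DNA sensor cGAS, fell by 0.32 on the log2 scale at day 4.

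Among further interferon-stimulated genes, 14 of 50 rose and 8 fell at day 2 (28% and 16%, against 16.9% and 14.3% of all genes; median log2 0.10), and 17 of 52 rose and 5 fell at day 4 (32.7% and 9.62%, against 13.7% and 11.1%; median 0.19). Ifit1bl1, an Ifit family gene, had 27.2 ± 2.44 CPM in DMSO and 33.3 ± 3.68 in 4OHT at day 2, then 10.4 ± 1.65 and 33.2 ± 10.3 at day 4. Its log2 fold changes were 0.30 ± 0.08 and 1.67 ± 0.21, and the interaction was 1.37 ± 0.25 (edgeR adjusted p = 0.0145). Ifitm3 and Ifitm2, which block viral entry, fell by 0.31 and 0.29 on the log2 scale at day 4. Of 18 MHC class I and antigen processing genes, 8 fell (44.4%) and the other 10 were not called at day 2, and 3 rose and 3 fell at day 4 (16.7% each way). B2m, the light chain of MHC class I, fell by 0.71 and 0.31 on the log2 scale, in the direction of Psmb9, and the heavy chain gene H2-D1 rose by log2 0.37 ± 0.05 at day 4. Class I heavy chain genes are near copies of each other, so their reads may be split.

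The immune marker sum was 5.32 to 9.53 CPM in 4OHT (at most 6.41 without replicate 4) and 4.90 to 5.83 CPM in DMSO at day 4, and 5.68 to 6.42 and 5.79 to 6.92 CPM at day 2. Its part in the day 4 differences was not tested. Of the 7 listed markers, the myeloid genes Cd68 and Itgam made up most of the sum. Cd68 was at 2.78 to 5.81 CPM in 4OHT and 1.82 to 2.79 CPM in DMSO at day 4, and at 3.38 to 4.27 and 2.54 to 3.10 CPM at day 2. Itgam was at 2.16 to 3.43 and 2.47 to 3.08 CPM at day 4, and at 1.87 to 2.19 and 2.70 to 3.23 CPM at day 2. The pan-leukocyte gene Ptprc and the T cell gene Cd3e had at most 7 and 6 reads in any library, and Cd79a, Csf1r and Lyz2 at most 11, 17 and 19. In bulk RNA, fewer cells that express a gene and less RNA of it per cell cannot be told apart.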

How the data were processed

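Poly(A) RNA libraries were made with a directional second-strand kit starting with 250 ng RNA, as the labels' protocols state. STAR 2.4.0f1, bcl2fastq 1.8.4 and the build GRCm38 were used, per the submitters' processing notes. How reads were counted, on which annotation and with which strand setting is not given in the sources used here, and genes overlapping on opposite strands are uncertain. Irf9, Rtp4, Parp14 and Gbp7 overlap exons of genes on the same strand (Rnf31, Gm45338, Gm49730 and Gm43802). No strand setting separates such reads, so these counts are uncertain too. The authors deposited read counts per gene in 1 table per day, with 20790 and 20658 genes, each with at least 10 reads over 8 libraries. In the tables, 14 symbols rewritten as dates were restored through their gene IDs.

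The 38 members were matched by symbol. The members, the other lists and the rule for named genes were chosen with earlier results of these data known. Every member could be named, with every library's value for members with a call. Hnf4a and the receptors were named too, and up to 3 genes in each direction from every other list. The test was edgeR's quasi-likelihood test (edgeR 4.0.16 in R 4.3.3, with limma 3.58.1) in its robust form, after filterByExpr and TMM scaling. P-values were adjusted by Benjamini-Hochberg over all genes, with a threshold of 0.05. SE was taken as the absolute log2 fold change over the root of F. CPM were computed over all 16 libraries and divided by GENCODE M21 exon length for levels per kb. Coordinates are 1-based.

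At day 4, deviations of same-numbered DMSO and 4OHT libraries correlated at 0.63 to 0.81, and all 4 pairs matched best. The main tests did not use this pairing. A paired fit with the replicate block was run as an alternative, and its day 4 results are given beside the unpaired ones. No batch shared by number is named in the labels. Correlations of -0.11 to 0.47 were found at day 2, in DMSO across days 0.07 to 0.19, and in 4OHT across days -0.23 to 0.39. No library was a copy of another. Library totals of 63.8 M to 93.3 M bear on the counting precision, while the tests take their error from the spread between libraries. Without molecular identifiers, amplified copies of a read cannot be told apart, and their share was not measured. The alternatives were DESeq2 1.42.0, its size factors in edgeR, 2 other filters, a replicate block, a fit over 16 libraries, a threshold of 0.01 and each library left out. The tests were tested on simulated data. Of genes changed 1.25-fold, they recovered 60% at day 2, 36% at day 4 and 8% for the interaction. With time it was 40% in DMSO and 26% in 4OHT. At 2-fold they recovered 68% (interaction) to 94% (day 2). False calls ran from 4 of 109 (interaction) to 12 of 161 (time in DMSO). A small change without a call may thus have been missed. Promoter windows are RefSeq's (GRCm38.p6). One gene that the rule for named genes covers is not reported here.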

Additional observations from a re-analysis of the deposited data

Results flagged for a closer look

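Within groups of 4 libraries, 1 library stood far from the other 3 in 4 of 152 member and group combinations, where chance flags about 5%. Rsad2 in 4OHT day 4 replicate 4 was at 1.42 CPM against 0.612 to 0.693 CPM in the rest. Ifit2 in 4OHT day 2 replicate 4 was at 1.01 CPM against 0.565 to 0.631. Rtp4 in DMSO day 2 replicate 1 was at 0.116 CPM against 0.177 to 0.184. Ifi27l2a in 4OHT day 2 replicate 1 was at 0.393 CPM against 0.245 to 0.269.

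The effect of 4OHT differed between the days by the interaction test for Irf7 (log2 0.88), Ifi27l2b (log2 0.78) and Oas1a (log2 0.54). In each of the 3, the 4OHT effect at day 4 was the higher one.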

How the results depend on the processing

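No member with a call, in the main test or in the alternative, changed direction under any alternative. Members without a call could change sign. Without replicate 4 of 4OHT day 4, Oasl1 with time in 4OHT went from log2 0.22 to -0.28, uncalled both times. Counts of members per comparison stayed within 1.5 times the counts above except as follows. For 4OHT against DMSO at day 2, the 2 falls became 1 with DESeq2, with at least 1 CPM in 4 libraries, in the fit over all 16 libraries and at a threshold of 0.01, and were 1 to 5 when each library was left out (5 without DMSO day 2 replicate 4). At day 4, the 13 rises became 8 at 0.01 and were 11 to 16 with a library left out. The 1 fall became 2 with DESeq2, the fit over 16 libraries and the replicate block (17 rises), 0 at 0.01, and 1 to 2 with a library left out. With time in DMSO, the 8 rises became 4 at the 1 CPM filter, which tests fewer genes. With time in 4OHT, the 19 rises became 10 at that filter, and the 1 fall became 0 there, without a filter, with the replicate block and at 0.01, and was 0 to 1 with a library left out. The 3 interactions became 8 with DESeq2 and 11 with the replicate block, and 2 to 7 with a library left out (7 without DMSO day 2 replicate 4). The causes were not tested beyond the filter. Among these alternatives, the share over all genes was computed for the replicate block at day 4 only, so the other counts have no background. In the other comparisons the block moved no count by over 1.5 times. Gbp2 and Gbp3 had too few reads to pass the filter of the treatment tests.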
